A study of Mus musculus with 6 samples.

Results

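Intraflagellar transport (IFT) and BBSome genes encode the machinery that builds the primary cilium and moves cargo along it. The set holds 35 genes of 18193 named genes on the array, chosen by function: 6 genes of the IFT-A complex, 14 of IFT-B, 10 of the BBSome and its assembly chaperonins, and 5 of the motors. Each gene is read on its brightest probe set, selected on its mean level over all 6 arrays without regard to genotype. All 35 genes were measured, and no filter on low values was applied. The list itself was drawn up with the genotype differences of these arrays already known. Its counts and medians are therefore given as a description, beside the same values over all genes, and no test of the list was made.

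The samples were R1 mouse embryonic stem cells of the strain (129X1 x 129S1)F1. Total RNA of 3 samples of Sirt1+/+ cells and 3 samples of Sirt1-/- cells was hybridised to 1 Affymetrix 3' array each. Sirt1 encodes a deacetylase that uses NAD. Cells of both genotypes were grown on gelatin, in medium with serum and the self-renewal cytokine LIF, and neither received a further treatment. The labels name 1 source of cells per genotype, so loss of Sirt1 and any other difference between those sources cannot be told apart. They do not say whether the 3 samples of a genotype were separate cultures, and p-values therefore reflect only sample-to-sample spread, possibly technical.

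The primary cilium is a single microtubule-based antenna that grows from the mother centriole of a cell outside mitosis. Kinesin-2 carries trains of IFT-B and IFT-A towards the tip, dynein-2 brings them back, and the BBSome rides on the trains to carry membrane receptors out of the cilium. In vertebrates the Hedgehog pathway depends on this transport, and factors of the RFX family bind the promoters of many of these genes.

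The targeted gene followed the labels. Sirt1 read 10.12, 10.13 and 10.23 on the wild-type arrays and 8.02, 7.94 and 8.20 on the knockout arrays, in log2 units. The labels do not say whether this probe set lies within the deletion, which limits the check. The median of all probe sets lay between 4.51 and 4.57 on every array, and replicate arrays had a median SD per gene of 0.0985 on the log2 scale. The 12 embryonic stem cell markers had mean levels of 9.69 to 14.39 on their probe sets. Pou5f1 read 12.29 in wild type, against 12.39 in knockout, with no change past the threshold (limma, adjusted p = 0.154), and Nanog fell by 0.90 on the log2 scale.

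Most IFT and BBS transcripts were lower in the knockout, by modest amounts. In a limma fit over all 18193 genes, 18 of the 35 fell, 2 rose and 15 did not pass a Benjamini-Hochberg adjusted p of 0.05. This is 51.4% lower and 5.71% higher, where 17.5% of all genes were lower and 12.5% were higher. The median log2 change of the 35 genes was -0.23, against -0.01 over all genes. Of the 35 changes 30 (85.7%) were negative, where 53.2% of the changes of all genes were. The 3 knockout arrays lay wholly below the 3 wild-type arrays for 24 of the 35 genes and wholly above for 3. Over all 18193 genes they lay wholly below for 4497 and wholly above for 3476, and 43.8% had separate groups in either direction. Because 25 of the 35 genes lie above the median level of all genes, and brighter genes were called more often, the share among brighter genes is the nearer background: 26.5% of all genes above the median level were lower, and 48% of these 25. Without wild-type replicate 3 the number of lowered genes was 11, and without wild-type replicate 1 or knockout replicate 2 the number of raised genes was 1. A stricter adjusted p of 0.01 left 8 lower and 1 higher.

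**Figure D1:**
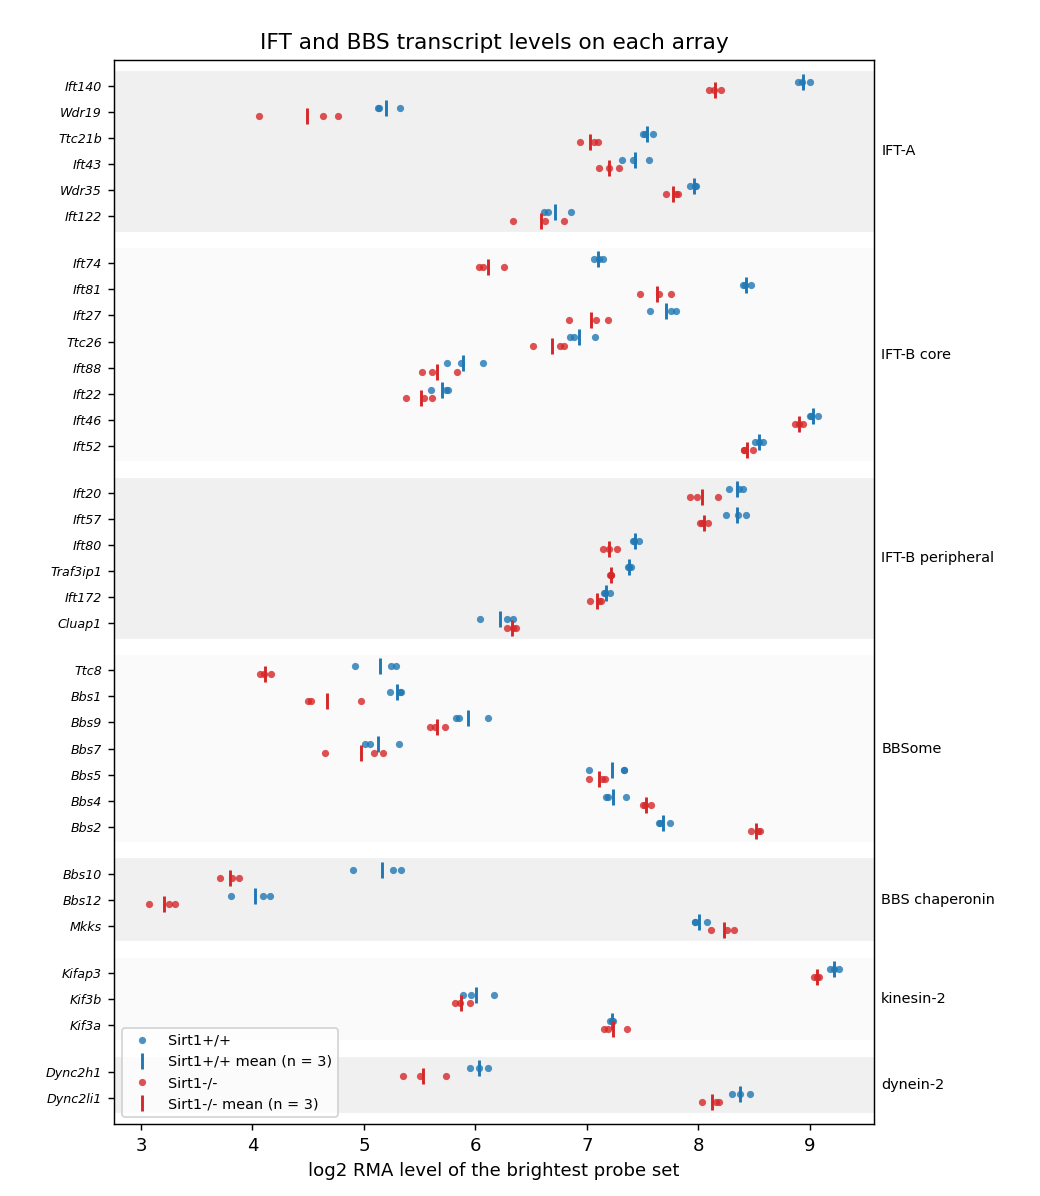
Log2 RMA level (horizontal axis) of each of the 35 genes on every array, grouped by complex. Blue points are the 3 Sirt1+/+ arrays, red points the 3 Sirt1-/- arrays, and upright bars the group means. Red lies wholly left of blue for 24 genes and wholly right of it for 3. Over all 18193 genes the knockout arrays were wholly lower for 4497 and wholly higher for 3476.

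The mean level over the 35 genes was 6.998, 6.98 and 7.09 on the wild-type arrays and 6.67, 6.74 and 6.72 on the knockout arrays. All knockout means were below all wild-type means. Levels of different probe sets depend on their own affinity and are not compared between genes.

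Promoter windows were available for 31 of the 35 genes, from RefSeq on GRCm38.p6, and run from 250 bases before the transcription start to 50 after it. They were searched for the RFX recognition motif, because RFX factors are the best-known shared regulators of these genes. The core GTTGCC, on either strand, was present in 13 of the 31 windows (41.9%) and in 14.7% of the windows of 14452 measured genes. A longer form with GTTGCCA, of which the core is part, was in 7 of 31 (22.6%) against 4.95%. The paired form, GTTNCC and its inverted copy GGNAAC with 1 to 3 bases between them, was in 3 of 31 (9.68%) against 145 of the 14452. Of the 13 genes with the core 7 fell and 0 rose (limma, and also 0 at an unadjusted p under 0.05), with a median log2 change of -0.24. Of the 18 without it 8 fell and 2 rose, with a median of -0.21. These are 53.8% and 44.4% lower, where 18.8% of all genes with the core and 17.6% of those without it were lower. The shares that rose were 0% and 11.1%, against 12.1% and 13.1% of all genes with and without the core. The difference between the genes with and without the core was not tested. A match is a run of letters and does not show binding. The 3 windows with the paired form and the 4 others with the core upstream of the start are shown on the transcribed strand, 5′ to 3′, trimmed to the motif and up to 20 bases on each side, with the motif in capitals. They are shown so that the matched letters can be read in their context, and their likeness follows from the search. The other 6 genes with the core, Bbs1, Bbs5, Dync2h1, Ift172, Ift88 and Wdr35, have it only in the transcribed part or across the start, and their windows are not printed.
Ift57 (chr16:49699214-49699266, + strand, motif ending 48 bases before the start): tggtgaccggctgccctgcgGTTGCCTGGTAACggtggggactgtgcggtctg
Ttc26 (chr6:38381471-38381523, + strand, 20 bases): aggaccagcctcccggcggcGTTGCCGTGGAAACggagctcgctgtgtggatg
Bbs7 (chr3:36613477-36613530, - strand, 108 bases): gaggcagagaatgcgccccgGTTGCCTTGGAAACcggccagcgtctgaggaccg
Ift140 (chr17:25015957-25016002, + strand, 104 bases): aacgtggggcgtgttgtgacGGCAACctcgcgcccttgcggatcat
Ift27 (chr15:78174082-78174110, - strand, 4 bases): gagaaggcgggttgatgatgGTTGCCagg
Traf3ip1 (chr1:91494569-91494614, + strand, 74 bases): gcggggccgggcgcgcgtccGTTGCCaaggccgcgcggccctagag
Kif3a (chr11:53567251-53567296, + strand, 93 bases): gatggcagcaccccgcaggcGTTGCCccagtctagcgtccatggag
Of these 7 genes, Ift57, Ift140, Ift27 and Traf3ip1 fell, and Ttc26, Bbs7 and Kif3a did not pass the test.

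IFT-A, the complex needed for retrograde transport and for entry of membrane proteins into the cilium, had negative changes in all 6 subunits, and 4 passed the threshold. That is 66.7% lower, against 17.5% of all genes. No gene rose in limma, where 0 were higher at an unadjusted p under 0.05. The median log2 change was -0.37, and over the 16 other settings tried it lay between -0.41 and -0.25. Ift140, a core scaffold subunit, read 9.001, 8.90 and 8.93 in wild type, against 8.10, 8.14 and 8.20 in knockout. The groups were far apart, with a log2 change of -0.79 (SE 0.05; limma, adjusted p = 0.000177), or 1.73-fold lower. Ttc21b, the peripheral subunit IFT139, read 7.52, 7.50 and 7.60 against 7.10, 7.06 and 6.94, also with no overlap. Its log2 change was -0.51 (SE 0.06; limma, adjusted p = 0.00139). With its probe sets averaged it was -0.0993 and did not pass (limma, adjusted p = 0.186). Wdr19, the scaffold subunit IFT144, read 5.13, 5.14 and 5.32 in wild type, against 4.63, 4.76 and 4.06 in knockout. Knockout replicate 3 was the lowest of the 6, and the change of -0.71 (SE 0.18; limma, adjusted p = 0.0269) had the widest error of the 35 genes. It did not pass when any 1 wild-type array was left out (adjusted p = 0.0645 to 0.0811). Wdr35, the subunit IFT121, fell by 0.18 on the log2 scale (limma, adjusted p = 0.0370), a call lost without any 1 of the 6 arrays (adjusted p = 0.0554 to 0.113). Ift43, a small peripheral subunit, had separate groups but did not pass (log2 change -0.23; limma, adjusted p = 0.0723). Ift122 overlapped between genotypes (log2 change -0.12).

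IFT-B, which drives anterograde transport, had negative changes in 13 of its 14 genes, and 7 passed. That is 50% lower, against 17.5% of all genes. No gene rose in limma, where 0 did at an unadjusted p under 0.05. The median log2 change of -0.23 lay between -0.28 and -0.19 over the other settings. In the core of the complex 3 of 8 genes (37.5%) fell and 5 did not pass. The largest differences were in Ift74 and Ift81, whose products form a dimer that binds tubulin cargo. Ift74 read 7.11, 7.06 and 7.14 in wild type, against 6.26, 6.03 and 6.07 in knockout. The groups were well apart, and the log2 change was -0.99 (SE 0.07; limma, adjusted p = 0.000219), or 1.98-fold lower. Ift81 read 8.47, 8.42 and 8.41 against 7.48, 7.65 and 7.76, again with no overlap. Its log2 change was -0.80 (SE 0.08; limma, adjusted p = 0.000585), or 1.75-fold lower. Ift27, a small GTPase that links IFT-B to export of the BBSome, read 7.57, 7.80 and 7.75 against 6.84, 7.08 and 7.19. Its log2 change was -0.67 (SE 0.11; limma, adjusted p = 0.00440). Its partner IFT25, encoded by Hspb11 and not among the 35 genes, did not pass and read 8.07 in wild type, against 8.20 in knockout.

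The other core genes differed less. Ift46, Ift52, Ift22, Ift88 and Ttc26, which encodes IFT56, had log2 changes of -0.12, -0.11, -0.19, -0.24 and -0.24, none past the threshold. Ift46 read 9.01, 9.08 and 9.003 against 8.87, 8.94 and 8.91, which is separate but by a margin of less than 0.1. Ift88, whose loss removes cilia in mice, read 5.87, 5.74 and 6.07 against 5.61, 5.53 and 5.84, with overlapping arrays (limma, adjusted p = 0.180).

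Among the peripheral IFT-B genes 4 of 6 (66.7%, against 17.5% of all genes) fell, by at most 0.32 on the log2 scale. Ift57 read 8.36, 8.25 and 8.43 in wild type, against 8.02, 8.09 and 8.04 in knockout, a log2 change of -0.30 (SE 0.06; limma, adjusted p = 0.0113) with no overlap. Ift20, whose product also sits at the Golgi, read 8.37, 8.27 and 8.40 against 7.92, 7.99 and 8.18. Its log2 change of -0.32 passed (limma, adjusted p = 0.0234), but not without wild-type replicate 1 or 3 or knockout replicate 1 or 2 (adjusted p = 0.0640 to 0.0766). Ift80 fell by 0.23, a call lost without wild-type replicate 3 (adjusted p = 0.0527) or knockout replicate 2 (adjusted p = 0.0536), and with arrays centred on their medians (adjusted p = 0.0507). With its probe sets averaged its log2 change was -0.0486 (limma, adjusted p = 0.617). Traf3ip1, the microtubule-binding subunit IFT54, fell by 0.16 on the log2 scale, and left the threshold without any 1 array (adjusted p = 0.0609 to 0.0813). Its values were tight, 7.37, 7.38 and 7.39 against 7.22, 7.22 and 7.21. Ift172, which turns the trains around at the tip, had a log2 change of -0.09 and did not pass. Cluap1, the subunit IFT38, was the 1 gene of IFT-B with a positive value, 0.11, and its arrays overlapped.

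**Figure D2:**
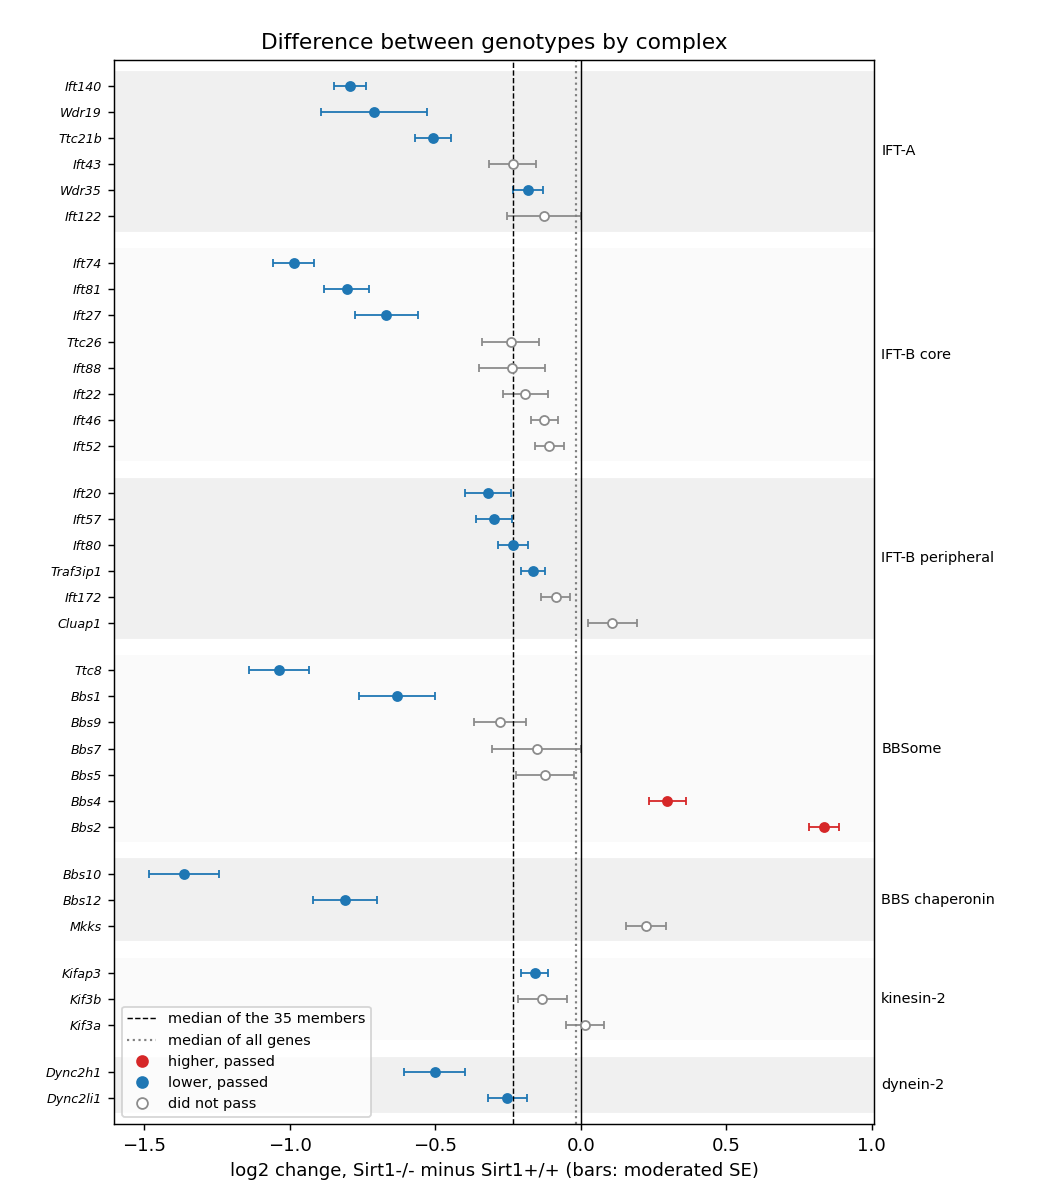
Log2 change, knockout minus wild type (horizontal axis), of each gene with its moderated SE, ordered within complexes. Filled points passed an adjusted p of 0.05 over all genes, blue lower and red higher, and open points did not. The dashed line is the median of the 35 genes, -0.23, and the dotted line that of all genes, -0.01. Points left of 0 predominate in every complex, and the 2 raised genes, Bbs2 and Bbs4, both belong to the BBSome.

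The BBSome and its chaperonins moved in both directions and held the largest changes of the set. Of the 10 genes 4 fell, 2 rose and 4 did not pass, with a median log2 change of -0.21 (-0.28 to -0.12 over the other settings). The shares were 40% lower and 20% higher, against 17.5% and 12.5% of all genes. Among the 7 BBSome subunits, Ttc8, the subunit BBS8, read 5.24, 4.92 and 5.28 in wild type, against 4.06, 4.11 and 4.17 in knockout. The knockout values were tight and well below, with a log2 change of -1.04 (SE 0.10; limma, adjusted p = 0.000671), or 2.05-fold lower. Bbs1, which binds membrane cargo together with the GTPase ARL6, read 5.34, 5.32 and 5.23 against 4.50, 4.53 and 4.97. Knockout replicate 3 was nearest to wild type, and the log2 change was -0.63 (SE 0.13; limma, adjusted p = 0.0119). An unmoderated linear model did not call it (adjusted p = 0.0570). Bbs2, a core subunit, went the other way. It read 7.65, 7.66 and 7.75 in wild type, against 8.47, 8.55 and 8.54 in knockout, a log2 change of 0.84 (SE 0.05; limma, adjusted p = 0.000134), or 1.79-fold higher. Bbs4, a peripheral subunit that binds the centriolar satellite protein PCM1, read 7.19, 7.17 and 7.35 against 7.50, 7.58 and 7.53. Its rise of 0.30 (SE 0.06; limma, adjusted p = 0.0136) did not pass without wild-type replicate 1 (adjusted p = 0.0547) or knockout replicate 2 (adjusted p = 0.0505). Bbs5, Bbs7 and Bbs9 had log2 changes of -0.12, -0.15 and -0.28 and did not pass. The arrays of Bbs5 and Bbs7 overlapped, and those of Bbs9 did not.

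The chaperonin-like proteins encoded by Mkks, Bbs10 and Bbs12 fold and assemble the BBSome core. Bbs10 had the largest change of the 35 genes on the brightest probe sets. On its other probe set the log2 change was -0.93, smaller than the -1.04 of Ttc8. It read 4.90, 5.27 and 5.34 in wild type, against 3.88, 3.82 and 3.71 in knockout, a log2 change of -1.36 (SE 0.12; limma, adjusted p = 0.000440), or 2.57-fold lower. Bbs12 read 3.81, 4.09 and 4.16 against 3.07, 3.31 and 3.25, a log2 change of -0.81 (SE 0.11; limma, adjusted p = 0.00219). Its knockout mean of 3.21 was about at the lower quartile of all values on the arrays, 3.20, where background limits a measured fold. Mkks had separate groups in the opposite direction, 7.97, 7.97 and 8.08 against 8.11, 8.32 and 8.26, but did not pass (log2 change 0.22; limma, adjusted p = 0.0538).

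Of the 5 motor genes 3 fell (60%, against 17.5% of all genes), and the median log2 change was -0.16. No gene rose in limma, where 0 did at an unadjusted p under 0.05. The median lay between -0.19 and -0.09 over the other settings. Both dynein-2 genes fell. Dync2h1, the heavy chain that powers retrograde transport, read 6.12, 5.95 and 6.03 in wild type, against 5.74, 5.50 and 5.35 in knockout, a log2 change of -0.50 (SE 0.10; limma, adjusted p = 0.0122). An unmoderated linear model did not call it (adjusted p = 0.0536). Dync2li1, its light intermediate chain, read 8.37, 8.30 and 8.46 against 8.03, 8.19 and 8.16. The groups were separate by about 0.1, and the log2 change was -0.25 (SE 0.07; limma, adjusted p = 0.0317). This call was lost without wild-type replicate 1 or 3 or knockout replicate 1 or 3 (adjusted p = 0.0681 to 0.0886). Of kinesin-2, the motor subunits Kif3a and Kif3b overlapped between genotypes, with log2 changes of 0.01 (SE 0.07) and -0.13 (SE 0.08). Kifap3, the accessory subunit that joins motor to cargo, read 9.26, 9.22 and 9.18 against 9.08, 9.07 and 9.04. Its fall of 0.16 passed narrowly (limma, adjusted p = 0.0445), and not without any 1 array (adjusted p = 0.0620 to 0.146).

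Probe sets that the selection did not use gave a second reading for 15 of the 35 genes, on the same arrays. They were fitted over all 34945 probe sets with 1 gene symbol. The second-brightest probe set had the same sign as the brightest for 9 of the 15. For the 10 genes called on the brightest probe set in the fit over genes, the sign was the same for 7. Of these, 5 also passed in that direction, and none of the 10 passed in the opposite direction in limma. In the fit over probe sets, the brightest ones of Wdr35 and Kifap3 did not pass (limma, adjusted p = 0.0585 and 0.0741). That of Traf3ip1, its only one, did not pass there either (limma, adjusted p = 0.0507). Bbs10 was lower on both (-1.36 and -0.93), as were Ift81 (-0.80 and -0.56), Ift27 (-0.67 and -0.51) and Wdr35 (-0.18 and -0.35), and Bbs4 was higher on both (0.30 and 0.32). Some genes had further, dimmer probe sets. Those of Ift27 and Ift81 gave -0.54 and 0.25, and those of Bbs4 gave 0.25 and -0.05. The readings of 0.25 for Ift81 and both for Bbs4 did not pass. Ttc21b, Ift80 and Kifap3 differed in sign, with second readings of 0.31, 0.14 and 0.00, none past the threshold (limma, adjusted p = 0.0539, 0.268 and 0.987). The second reading of Wdr19, 3.34 in wild type, against 3.22 in knockout, was close to the lower quartile of all values. For Mkks the second probe set was lower by 0.37 and passed (limma, adjusted p = 0.0283), against the 0.22 of the brightest one. Kif3b had probe sets called in opposite directions, -0.36 (limma, adjusted p = 0.0241) and 0.33 (limma, adjusted p = 0.0131). The directions of Mkks and Kif3b are therefore unsettled. The counts and medians take both at their brightest probe sets, 0.22 and -0.13. With all probe sets of a gene averaged, 15 of the 35 genes were lower and 1 was higher. Averaging took Ift81 to -0.37 and Wdr19 to -0.41, both still called. It ended the calls of Ttc21b (-0.0993; limma, adjusted p = 0.186), Ift80 (-0.0486; limma, adjusted p = 0.617), Kifap3 (-0.0773; limma, adjusted p = 0.397) and Bbs4 (0.20; limma, adjusted p = 0.0718).

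**Figure D3:**
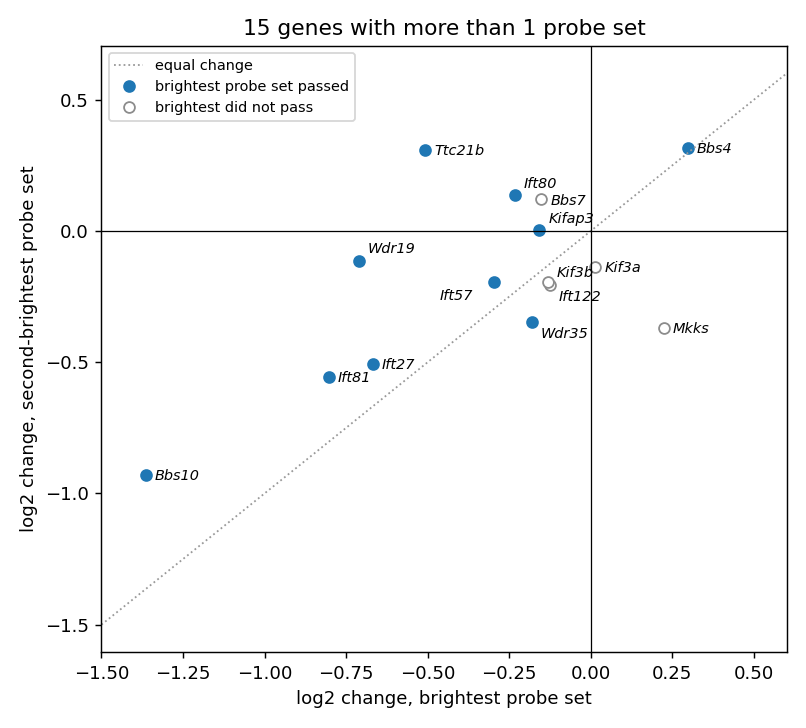
Log2 change on the brightest probe set (horizontal axis) against that on the second-brightest (vertical axis) for the 15 genes with more than 1 probe set. Filled points passed on the brightest probe set and the dotted line marks equal change. Bbs10, Ift81 and Ift27 lie low on both axes, Bbs4 lies high on both, and Ttc21b, Ift80, Bbs7, Kif3a, Kifap3 and Mkks differ in sign.

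The 35 genes lie on 16 chromosomes. Bbs2 is the 1 member on chromosome 8, where 313 of 932 genes (33.6%) were higher and 98 (10.5%) lower, against 11.3% higher and 17.9% lower on the other chromosomes. The part of this in the rise of Bbs2 was not tested. Of the 20 nearest measured genes around Bbs2, 10 on each side, 4 were higher and 2 lower, with a median log2 change of 0.05. Around Bbs4, on chromosome 9, 3 of 20 were higher and 5 lower. The neighbours of the 18 lowered genes had medians between -0.12 and 0.08, with -0.12 around Wdr19. Without chromosome 8 the counts were 18 lower and 1 higher of 34 genes.

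Genes of the wider ciliary machinery, from lists set down with the 35 genes, gave a mixed picture. Of 15 further IFT, BBS and motor genes 4 fell, 2 rose and 9 did not pass, with a median log2 change of -0.06. They were 26.7% lower and 13.3% higher, where 17.5% of all genes were lower and 12.5% higher. Among all genes above the median level, where 9 of these 15 lie, 26.5% were lower and 21.5% higher. Ttc30a1 and Ttc30b, copies that encode the IFT-B core subunit IFT70, had log2 changes of -1.62 and -1.22. Their knockout means of 3.20 and 2.98 lay at or below the lower quartile of all values, and the probe sets of these closely related genes may read each other's transcripts. Lztfl1, which holds the BBSome outside the cilium, rose by 0.41, and the dynein light chain Dynll1 fell by 0.46. Of 22 genes of the basal body and cilium assembly 11 fell and limma called none higher (2 at an unadjusted p under 0.05), with a median of -0.23. This is 50% lower, and 21 of the 22 lie above the median level. The centriole genes Cenpj and Sass6 had log2 changes of -0.63 and -0.60, and Ccp110, which caps the centriole, fell by 0.43. Of 20 genes listed with the transition zone, the gate at the base of the cilium, 6 fell (30%) and 3 rose (15%), with a median of 0.00. Not every gene on that list is a part of the gate itself. Cc2d2a, Invs and Ahi1 had log2 changes of -0.98, -0.79 and -0.70. Of 10 genes listed under ciliary membrane trafficking 2 fell (20%) and 3 rose (30%), with a median of 0.03. Arl2bp, on chromosome 8, rose by 0.67 and the carrier Unc119 rose by 0.56. Cep41, on this list but named for a centrosomal protein, fell by 0.65.

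**Figure D4:**
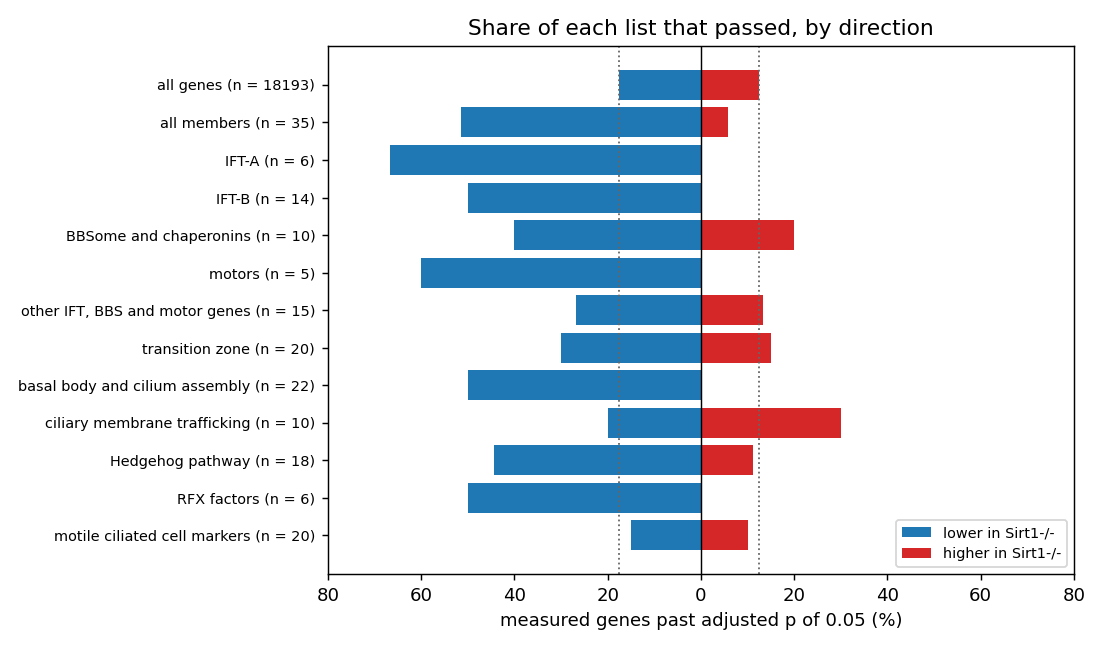
Share of the measured genes of each list past an adjusted p of 0.05 (horizontal axis, percent), lower in the knockout to the left and higher to the right. Dotted lines mark the shares over all genes, 17.5% lower and 12.5% higher, which are not matched for level. The 35 genes stand at 51.4% lower and 5.71% higher, the basal body list at 50% lower, and the transition zone list at 30% lower and 15% higher.

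Among the RFX factors 3 of 6 fell and limma called none higher (1 at an unadjusted p under 0.05). This is 50% lower, against 17.5% of all genes and 26.5% of those above the median level. Rfx5, known for control of MHC class II genes, fell by 0.68, and Rfx7 fell by 0.66. Rfx3, a regulator of ciliary genes, read 6.34, 6.56 and 6.66 in wild type, against 5.73, 6.09 and 5.91 in knockout. The groups did not overlap, and the log2 change was -0.61 (SE 0.12; limma, adjusted p = 0.00916). Rfx2 had a log2 change of -0.14 and did not pass. In the Hedgehog pathway 8 of 18 measured genes fell and 2 rose, with a median of -0.25. This is 44.4% lower and 11.1% higher, against 17.5% and 12.5% of all genes. The transcription factor Gli2 fell by 1.004 and the coreceptor Cdon fell by 0.65. Gli1, a target that reports pathway activity, read 6.71, 6.77 and 6.82 against 6.13, 6.26 and 6.17, with a log2 change of -0.58 (limma, adjusted p = 0.000641). Ptch1, the Hedgehog receptor and also a target, fell by 0.43 on the log2 scale, with no overlap between genotypes. Disp1, needed to release the ligand, rose by 0.46. A link between the RFX or Hedgehog genes and the IFT and BBS differences was not tested.

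Markers of other cell types were read beside these values, since in a bulk sample fewer cells of a type and less RNA per cell cannot be told apart. Of 12 endoderm markers 9 fell and limma called none higher (0 at an unadjusted p under 0.05), with a median log2 change of -1.31. This is 75% lower, against 17.5% of all genes. Their mean level was 6.39 to 6.43 on the wild-type arrays and 5.19 to 5.33 on the knockout arrays. Srgn, Cubn and Dab2 had log2 changes of -2.38, -2.24 and -1.80. These markers move in the same direction as the IFT and BBS genes, and their part in the difference was not tested. Of 20 markers of motile ciliated cells 3 fell and 2 rose, shares of 15% and 10%, against 17.5% and 12.5% of all genes. Only 3 of the 20 lie above the median level, and dimmer genes were called less often, so this background is not matched for level. They had mean levels of 4.44 to 4.47 in wild type, against 4.33 to 4.37 in knockout. Foxj1, the master factor of that cell type, read 4.61 in wild type, against 4.42 in knockout with overlapping arrays. The log2 changes of those called included -1.39 for Dnaic2, -0.51 for Drc1 and 0.70 for Zmynd10. Of 12 fibroblast markers 3 rose and 2 fell, and of 9 neural markers 3 rose and 3 fell. These are 25% higher and 16.7% lower for fibroblast markers, and 33.3% in each direction for neural markers. Vim rose by 1.28 and Thy1 fell by 1.07. The neural genes Tubb3 and Msi1 rose, by 0.76 and 0.66, and Nefl fell by 0.84. Of the 12 embryonic stem cell markers 7 fell (58.3%) and limma called none higher (1 at an unadjusted p under 0.05). Their median log2 change, -0.26, was about that of the 35 genes, and their part in the difference was not tested either. Klf4 and Tdgf1 had log2 changes of -0.66 and -0.65.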

How the data were processed

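The deposited log2 values came from the authors' RMA in Partek 6.5, as the submitters' processing notes list. RMA subtracts background, makes the arrays' distributions alike and combines probes into 1 value per probe set, so fold changes of dim genes are compressed. Its settings were not stated there, and the log2 scale was read from the range of the deposited values. Samples were grouped by their titles, 3 arrays per genotype, which limits the precision.

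Of 45101 probe sets, the 34945 with 1 gene symbol gave 18193 genes. The 64 control probe sets, 932 with several symbols and 9160 with none were left out. By Entrez identifier 18031 genes matched RefSeq on GRCm38.p6, which gave chromosomes, gene order and promoter windows. The genotype comparison used limma 3.58.1 under R 4.3.3 (2 groups, two-sided, Benjamini-Hochberg over all genes at 0.05). The procedure was tested on simulated data. The genes, lists and naming rule (every member, array values for the 12 largest changes and for 1 gene of each of 7 subcomplexes, and up to 3 changed genes of each other list) were chosen with earlier results of these data known. Array values of other genes were added after their values were seen, as were the motif search and the neighbouring genes.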

Additional observations from a re-analysis of the deposited data

How the results depend on the processing

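Of 16 other settings tried, none turned the sign of a called gene, and 8 of the 20 called genes kept their call in all of them: Ift140, Ift27, Ift74, Ift81, Bbs2, Ttc8, Bbs10 and Bbs12 (the last 3 were below the level filter that leaves out the dimmest 40% of genes, and Bbs2 is absent without chromosome 8). The median of the 35 genes stayed between -0.28 and -0.18. An adjusted p under 0.01 gave 3356 genes called, 8 of the 35 lower and 1 higher. The raised count was 1 with probe sets averaged and 1 without chromosome 8. With each array left out in turn the raised count was 1 to 3 and the lowered count 11 to 14. For genes that did not pass, the mean of probe sets turned Mkks to -0.0726 and Kif3a to -0.0736. Leaving out arrays moved Kif3a between -0.0497 and 0.0551 and Bbs7 between -0.251 and 0.00846. Like-numbered arrays did not deviate together (correlations of 0.0515, -0.0865 and 0.198 across genes, which are not independent replicates). With the number as a replicate block 4700 genes were called, and of the 35 genes 15 were lower and 2 higher. Where probe sets lie near the lower quartile of all values, background limits the measured change.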
